A study of Mus musculus with 18 samples.

Results

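The change in nascent RNA between 10 and 20 min of labelling was examined in *Tet2*-KO mouse embryonic stem (mES) cells. The comparison used the 6 libraries labelled *Tet2* knockout with a time point of 10 min (n = 3) or 20 min (n = 3), out of 18 libraries in the series. The other libraries were WT cells at 10, 20 and 40 min and *Tet2*-KO cells at 40 min, with 3 libraries each. All cells carried the same treatment. They were grown in serum with LIF, 3 µM CHIR99021 and 1 µM PD0325901, inhibitors of GSK3 and of MEK, and passaged on gelatin to clear feeder fibroblasts. At 42 h after seeding they received 1 mM 5-ethynyl uridine (EU) for the stated time. Each genotype is represented by 1 line in the methods, so that p-values measure the spread between dishes of a line and not between lines. No age applies to these cultured cells, and the sources used here give no sex.

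EU is a uridine analogue that cells build into RNA while it is being made. The labelled RNA is joined to biotin by a click reaction and captured on streptavidin beads, so that RNA made before the label was added is left behind. A polymerase that starts on a long gene when EU is added has covered only a stretch of it within minutes, while a short gene can be finished and its RNA spliced, exported and in part degraded during the pulse. TET2 is a dioxygenase that oxidizes 5-methylcytosine in DNA and RNA. In mES cells it is expressed together with TET1, and the study asked how its loss alters transcription.

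Both scales used below are relative. The share of a gene is its reads per 1000000 gene reads (CPM) after TMM scaling, a factor that makes the bulk of genes comparable between libraries. A difference in share says only that a gene gained or lost against the other genes. The level per ERCC read divides by the reads on ERCC transcripts, synthetic RNAs that the authors added to the eluted RNA in proportion to total RNA. A log2 change is always 20 minus 10 min, and a gene is called where edgeR's quasi-likelihood F-test gave a p under 0.05 after adjustment over all 19910 genes tested (Benjamini-Hochberg).

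Gene reads ranged from 18019586 to 22485051 in the 10-min libraries and from 18890266 to 19457641 in the 20-min libraries, and ERCC reads fell from between 189228 and 234290 to between 89633 and 98571. Replicates differed by more than counting noise in every pair (mean chi-square over genes, 2.44 to 7.84), and the 2 highest values were the pairs that hold replicate 1 of 10 min. Of 22 embryonic stem cell markers, 21 passed the filter on low counts, and their summed share was 3331 to 3361 CPM at 10 min and 3407 to 3466 CPM at 20 min. Reads on *Tet2* were not lost. Its share was 530, 545 and 538 CPM at 10 min and 583, 587 and 596 CPM at 20 min, a log2 change of 0.13 (SE 0.0208, adjusted p = 1.46e-05 in edgeR's test), against 563 to 576 CPM at 10 min in WT. Counts over the whole gene do not show whether an exon is missing, so the genotype is that of the labels.

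The total level of labelled RNA rose about as the labelling time did. Reads on all genes per ERCC read were 96.0, 89.6 and 101 at 10 min and 192, 215 and 211 at 20 min, so the groups did not overlap. The means were 95.4 ± 5.56 (SD, n = 3) and 206 ± 12.7 (SD, n = 3), a ratio of 2.16 and a log2 change of 1.11 (SE 0.0714). An exact permutation test of 3 against 3 libraries, two-sided, gave p = 0.1, the smallest value that this design allows. Protein-coding genes alone gave a ratio of 2.16. In WT the same total went from 46.7 ± 4.02 to 147 ± 8.86 (SD, n = 3 each), a ratio of 3.16. Under 9 alternatives, 6 of which left out 1 library, the *Tet2*-KO ratio stayed between 2.03 and 2.24.

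**Figure D1:**
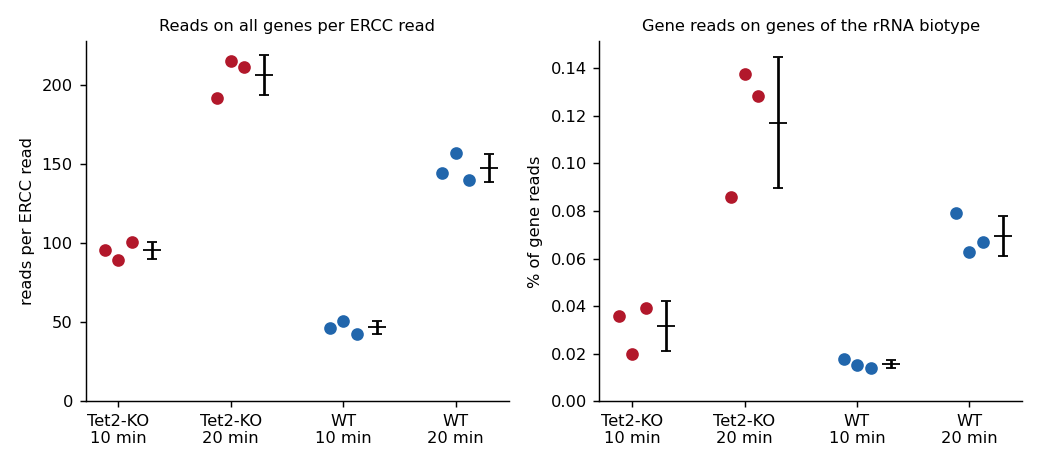
Left, reads on all genes per ERCC read, and right, the percentage of gene reads on genes annotated as rRNA, for each library of *Tet2*-KO (red) and WT (blue) at 10 and 20 min of EU, with the mean and SD of 3 libraries in black beside the points. The *Tet2*-KO totals lie at 89.6 to 101 at 10 min and at 192 to 215 at 20 min.

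Nearly all genes rose with the total. Per ERCC read, 19702 of 19910 genes had a log2 change above 0, with a median of 1.11, and 17073 genes were called higher (85.8% of genes tested) against 3 called lower (0.0151%). The 3 were all below 1 CPM. *Kbtbd11*, a Kelch-domain gene, had 16, 8 and 8 reads at 10 min and 0, 2 and 0 at 20 min. *Nrarp*, a feedback regulator of Notch signalling, had 9, 9 and 20 reads and then 2, 1 and 2. The *Mir18b* locus had 17, 16 and 21 reads and then 1, 4 and 4. With so few reads these values are close to the limit of what was detectable, and the 3 genes were singled out after their values were seen.

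Against this common rise, genes differed by small amounts. In share, 2079 genes were called higher at 20 min (10.4%) and 1745 lower (8.76%), and the median absolute log2 change of the called genes was 0.24. A change of at least 0.5 was reached by 438 called genes, of which 155 were higher and 283 lower, and a change of at least 1 by 80. Dividing by plain gene read totals in place of TMM asks which genes rose more or less than the total per ERCC read. On that scale 2220 genes were called higher (11.2%) and 1647 lower (8.27%). All 2079 genes called higher in share were among the 2220, and all 1647 called lower on this scale were also called lower in share. Most called genes had many reads, and 19.9% of the 9836 genes with a mean of at least 8 CPM were higher and 15.5% lower.

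Among protein-coding genes with at least 8 CPM, *Spry4* gained most. This gene, a feedback inhibitor of receptor tyrosine kinase and ERK signalling, had 8.95, 5.88 and 7.28 CPM at 10 min and 16.0, 17.5 and 16.9 CPM at 20 min. Every 20-min library was above every 10-min library, with a log2 change in share of 1.17 (SE 0.0975, adjusted p = 6.02e-11, edgeR). Its level rose 4.90-fold per ERCC read, against 2.16-fold for the total. *Tnc*, which encodes the matrix glycoprotein tenascin C, went from 6.72, 7.23 and 4.54 CPM to 13.8, 14.3 and 11.7 CPM, a log2 change of 1.10 (SE 0.143, adjusted p = 4.34e-07). *Thbs1*, which encodes thrombospondin 1, had 7.97, 7.96 and 7.97 CPM and then 15.8, 16.0 and 16.4 CPM, a log2 change of 1.01 (SE 0.129, adjusted p = 3.38e-07). *Inhba*, the activin beta A subunit of the TGF-beta family, went from 6.37, 6.89 and 5.12 CPM to 12, 10.8 and 11.7 CPM, a log2 change of 0.91. In these 4 genes the groups were apart.

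*Soga3* lay between *Thbs1* and *Inhba*, with 4.94, 6.28 and 6.23 CPM at 10 min and 10.9, 10.7 and 11.8 CPM at 20 min, a log2 change of 0.95. *Ajuba*, a LIM protein that acts in the Hippo pathway, went from 31.7, 31.5 and 32.8 CPM to 51.5, 54.7 and 47.1 CPM (log2 change 0.67). *Ehd1*, a regulator of endocytic recycling, went from 42.7, 44.7 and 42.5 CPM to 66.3, 70.9 and 67.9 CPM (0.66). *Sprtn*, a protease that removes proteins crosslinked to DNA, and *Slc30a1*, a zinc exporter, each had a log2 change of 0.66. These 9 genes were among the 10 with the highest changes of the called protein-coding genes with at least 8 CPM whose libraries did not overlap between the times. Of these, 8 span under 60 kb, from 6.48 kb in *Slc30a1* to 55.8 kb in *Soga3*, and *Tnc* spans 87.2 kb.

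Among protein-coding genes with at least 8 CPM, *Pou2f3* lost most share. This gene, a POU transcription factor of tuft cells and epidermis, had 98.4, 98.8 and 99.6 CPM at 10 min and 48.5, 50.1 and 51.3 CPM at 20 min. The groups were far apart and the log2 change was -0.98 (SE 0.0437, adjusted p = 2.03e-17, edgeR). Per 1000 ERCC reads its level was 9.43, 8.78 and 9.97 at 10 min and 9.32, 10.8 and 10.8 at 20 min, so that the ranges overlapped while the total per ERCC read rose 2.16-fold. *Stc2*, which encodes the secreted glycoprotein stanniocalcin 2, went from 14.3, 13.6 and 13.1 CPM to 7.34, 7.12 and 6.88 CPM, a log2 change of -0.95 (SE 0.12, adjusted p = 3.09e-07). *Prelid2* fell from 40.1, 38.6 and 35.9 CPM to 19, 19.9 and 21.8 CPM, and *Rtn4rl1*, which encodes a Nogo receptor homologue, from 30.3, 25.5 and 30.7 CPM to 16.1, 14.8 and 16.9 CPM. Their log2 changes were -0.92 and -0.86.

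The other 6 of the lowest 10 were *Fbxo17* (-0.78), an F-box gene, *Syne3* (-0.77), which encodes a nuclear envelope nesprin, *A2m* (-0.75), a protease inhibitor, *Tmc7* (-0.72), *Dpysl2* (-0.71), a regulator of axonal microtubules, and *Ephx2* (-0.71), an epoxide hydrolase. Per ERCC read the 10 genes rose only 1.10-fold (*Pou2f3*) to 1.33-fold (*Ephx2*). Their spans ran from 12.8 kb in *Stc2* to 86.4 kb in *Pou2f3*. Leaving out any 1 library left all 19 protein-coding genes named for their change in share called in the same direction.

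**Figure D2:**
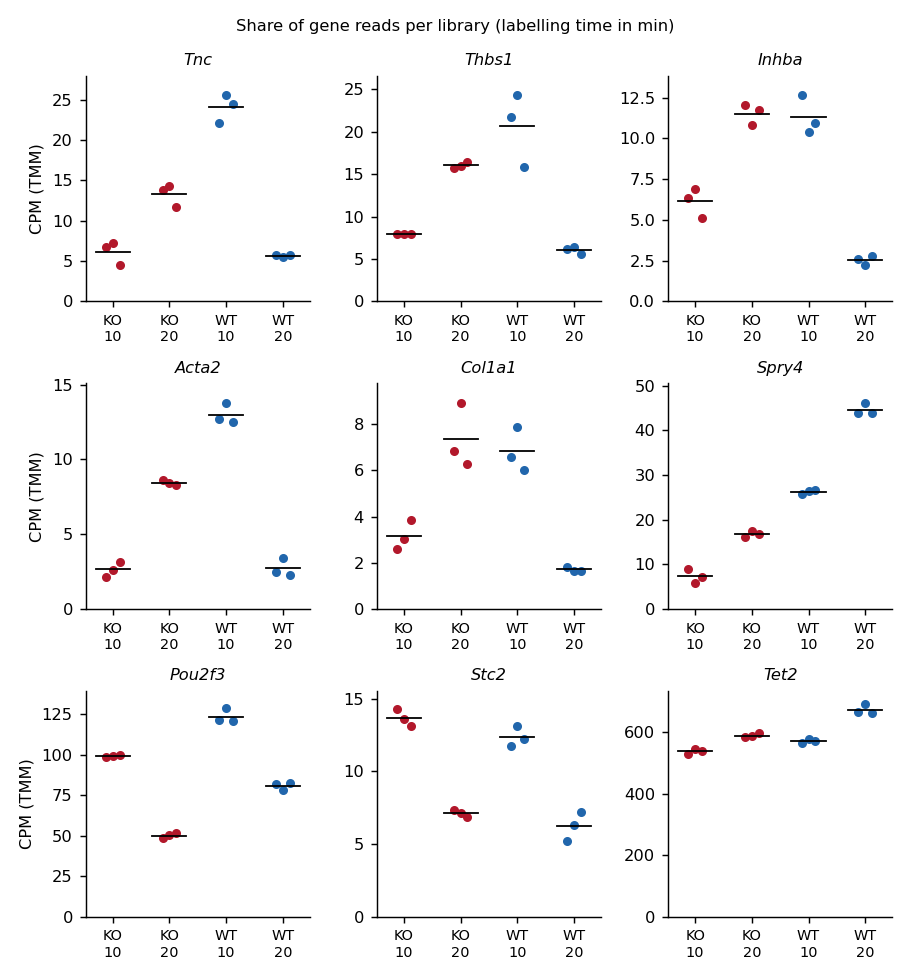
Share of gene reads in CPM after TMM scaling for 9 genes, with a point for each library of *Tet2*-KO (red) and WT (blue) at 10 and 20 min and a black line at the mean of 3 libraries. *Tnc*, *Thbs1*, *Inhba*, *Acta2* and *Col1a1* were higher at 20 min in *Tet2*-KO and lower at 20 min in WT, while *Spry4* and *Tet2* were higher and *Pou2f3* and *Stc2* lower in both.

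Several of the genes that gained most are also made at high levels by fibroblasts, and the cells had been grown on feeder fibroblasts before. Of 18 feeder fibroblast markers, 13 passed the filter, and 4 were called higher (30.8%) and 1 lower, with a median log2 change of 0.20. Over all genes tested 10.4% were higher and 8.76% lower. The 4 became 2 without replicate 3 of 20 min and the 1 became 2 without replicate 2 of 10 min. The 4 markers with at least 8 CPM had a median of 0.02, and the 1 of them that was called was lower. Those called higher were *Acta2* and *Tagln*, which encode smooth muscle actin and transgelin, *Col1a1*, a type I collagen chain, and *Postn*, a matrix protein, all below 10 CPM and named after their values were seen. *Postn* had 0 to 15 reads in a library, and its groups overlapped. Members below 0 that did not pass the test were *Twist2* (-0.76, adjusted p = 0.583), *Pdgfrb* (-0.59, adjusted p = 0.0550), *Loxl1* (-0.33, adjusted p = 0.126) and *Pdgfra* (-0.14, adjusted p = 0.787). *Col1a2*, *Fbn1*, *Col3a1* and *Col5a1* were above 0 and did not pass it either. *Acta2* had 2.14, 2.63 and 3.17 CPM at 10 min and 8.60, 8.42 and 8.27 CPM at 20 min, and *Col1a1* had 2.58, 3.03 and 3.85 CPM and then 6.86, 8.94 and 6.27 CPM. The summed share of the 18 markers without *Fn1*, which accounts for most of the list's reads, was 59.96 to 64.8 CPM at 10 min and 74.5 to 76.8 CPM at 20 min. With *Fn1*, which fell (log2 change -0.12, adjusted p = 2.12e-04), it was 999.7 to 1041 CPM and 935 to 964 CPM. The markers that did not pass the filter, *Dcn*, *Lum*, *Thy1*, *Twist1* and *Col6a1*, stayed at or below 0.475 CPM in the *Tet2*-KO libraries. In WT the sum without *Fn1* went the other way, from 109.6 to 124 CPM at 10 min to 70.4 to 75.5 CPM at 20 min. Fewer fibroblasts and less RNA per fibroblast cannot be told apart in such samples, and the part of feeder cells in the changes of *Tnc*, *Thbs1* and *Inhba* was not tested.

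Genes that are not protein-coding changed in both directions. Of 4752 such genes tested, 107 were higher and 166 lower, and of the 587 with at least 8 CPM 12.8% were higher and 16.0% lower, against 20.3% and 15.5% of 9249 protein-coding genes. The median log2 change in share was -0.02 for the former and 0.03 for the latter. The largest gain at that level was on CT010467.1, an annotated rRNA gene on chromosome 17 (39846353 to 39848827, minus strand, mm10). Its share was 351, 196 and 389 CPM at 10 min and 848, 1374 and 1276 CPM at 20 min, with no overlap and a log2 change of 1.90 (SE 0.147, adjusted p = 1.62e-11, edgeR). In WT it rose by 2.2 on the log2 scale. This gene overlaps 1 annotated gene on each strand, rRNA had been depleted before capture, and how far the depletion varied between libraries was not tested. The lincRNA *Gm34933* (6.90, 6.28 and 8.02 CPM, then 11.8, 13.6 and 13.7 CPM) rose by 0.88, the processed pseudogene *Gm10557* by 0.65, the gene ENSMUSG00000054178.1 by 0.57 and *Gm47572* by 0.55.

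The lowest of the non-coding genes with at least 8 CPM was the lincRNA *F630040K05Rik*, with 16.7, 17.0 and 14.6 CPM at 10 min and 8.81, 6.70 and 9.66 CPM at 20 min (log2 change -0.94). It was followed by *Gm44775* (-0.73), *Gm16268* (-0.70), which is annotated as antisense to another gene, *Mir292* (-0.68) and *1100001I12Rik* (-0.64). The call of *1100001I12Rik* (adjusted p = 0.0111) was lost without replicate 2 of 10 min (-0.41, adjusted p = 0.173) and without replicate 2 of 20 min (-0.60, adjusted p = 0.0549). The sources used here do not say whether counting used strand, so reads of an antisense gene and of its partner cannot be told apart.

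*Mir292* belongs to the miR-290 cluster, which gives rise to the most abundant microRNAs of mES cells. These microRNAs repress inhibitors of the G1/S transition and are cut out of one primary transcript in the nucleus by Drosha. The 7 hairpin loci of the cluster that were tested lie on the plus strand of chromosome 7 between 3218626 and 3220841. The mature sequences below are from RefSeq (GRCm38.p6), with the seed (bases 2 to 8) in capitals. They are shown for some of the seeds that loci of the cluster share, with a single arm for each hairpin shown. Another shared seed, that of miR-291a-5p and miR-291b-5p, is left out. The first group shares the seed of miR-291a-3p, the second that of miR-290a-5p.
miR-291a-3p: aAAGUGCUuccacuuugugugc
miR-294-3p: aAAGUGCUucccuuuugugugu
miR-295-3p: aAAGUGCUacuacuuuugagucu
miR-290a-5p: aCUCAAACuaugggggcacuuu
miR-292a-5p: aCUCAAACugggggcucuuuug
miR-293-5p: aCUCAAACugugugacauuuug

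Reads on the hairpin loci come from the labelled primary transcript and its pieces, not from mature microRNAs. *Mir292* had 12, 12.4 and 8.50 CPM at 10 min and 6.70, 6.34 and 7.5 CPM at 20 min, and *Mir295* 9.57, 9.58 and 7.86 CPM and then 6.07, 5.56 and 6.22 CPM. In both the groups were apart, with log2 changes of -0.68 (SE 0.138, adjusted p = 3.58e-04, edgeR) and -0.60 (SE 0.155, adjusted p = 0.00469). The other 5 loci did not pass the test. Their log2 changes were -0.40 for *Mir290a*, -0.33 for *Mir291a*, -0.28 for *Mir291b*, -0.20 for *Mir294* and -0.05 for *Mir293*. All 7 values were thus below 0, and the loci share a transcript and are not independent. The arms shown above for the 2 called loci are miR-292a-5p and miR-295-3p. A hairpin can give a microRNA from each arm, so no grouping by seed is read from the calls. In WT, *Mir292* and *Mir295* fell by 0.87 and 0.67 on the log2 scale. *Mir292* overlaps 2 genes on the other strand, 1 of them *Mir292b*, which had no read in the 6 libraries. In all, 42 miRNA loci were tested, of which 3 were called lower and 0 higher by edgeR and by DESeq2 (7 and 0 at an unadjusted p under 0.05), with a median of -0.02. Of all genes tested that are not protein-coding, 3.49% were lower and 2.25% higher.

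Short RNAs of other kinds had the lowest medians but few reads. The median log2 change in share was -0.51 for 14 snoRNAs, -0.44 for 12 genes of the class misc_RNA and -0.33 for 26 snRNAs, with 2, 0 and 1 called lower and 0 higher by edgeR and by DESeq2. At an unadjusted p under 0.05 the counts were 3, 0 and 5 lower and 0 higher. Among all tested genes that are not protein-coding, 3.49% were called lower and 2.25% higher by edgeR. Most of these genes were below 1 CPM. The 7 tested genes of the list of RNA polymerase III and other small structured RNAs had a median of -0.43, and 0 were called by edgeR, by DESeq2 or at an unadjusted p under 0.05. The most read of them, *Rn7sk*, the scaffold that holds P-TEFb inactive, had 152, 220 and 202 CPM at 10 min and 185, 193 and 167 CPM at 20 min, with overlapping ranges. The median was -0.08 for 1612 lincRNAs and -0.06 for 1182 antisense genes over all levels, and -0.03 and -0.02 for the 220 and 130 of them with at least 8 CPM.

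Gene span went with both the direction and the percentage of calls. Among protein-coding genes the median log2 change in share was near or above 0.04 in the classes from 2 to 40 kb, after -0.05 under 2 kb. It was highest, at 0.05, between 30 and 40 kb, where 21.4% of 1338 genes were higher and 5.83% lower. It passed 0 at about 60 kb and was lowest, at -0.09, between 100 and 150 kb, where 6.65% of 962 genes were higher and 30.7% lower. Beyond that it climbed back to -0.03 at 300 to 500 kb and -0.01 at 500 kb or more. The background over all genes tested was 10.4% higher and 8.76% lower, with a median of -0.01. These medians are small beside the spread within a class. The middle 50% of genes of 100 to 150 kb ran from -0.22 to 0.04, and genes are not replicates, so no test was made over them. Whether the authors' counts include intronic reads is not given in the sources used here, and what a difference by span, exon number or intron share measures depends on it.

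**Figure D3:**
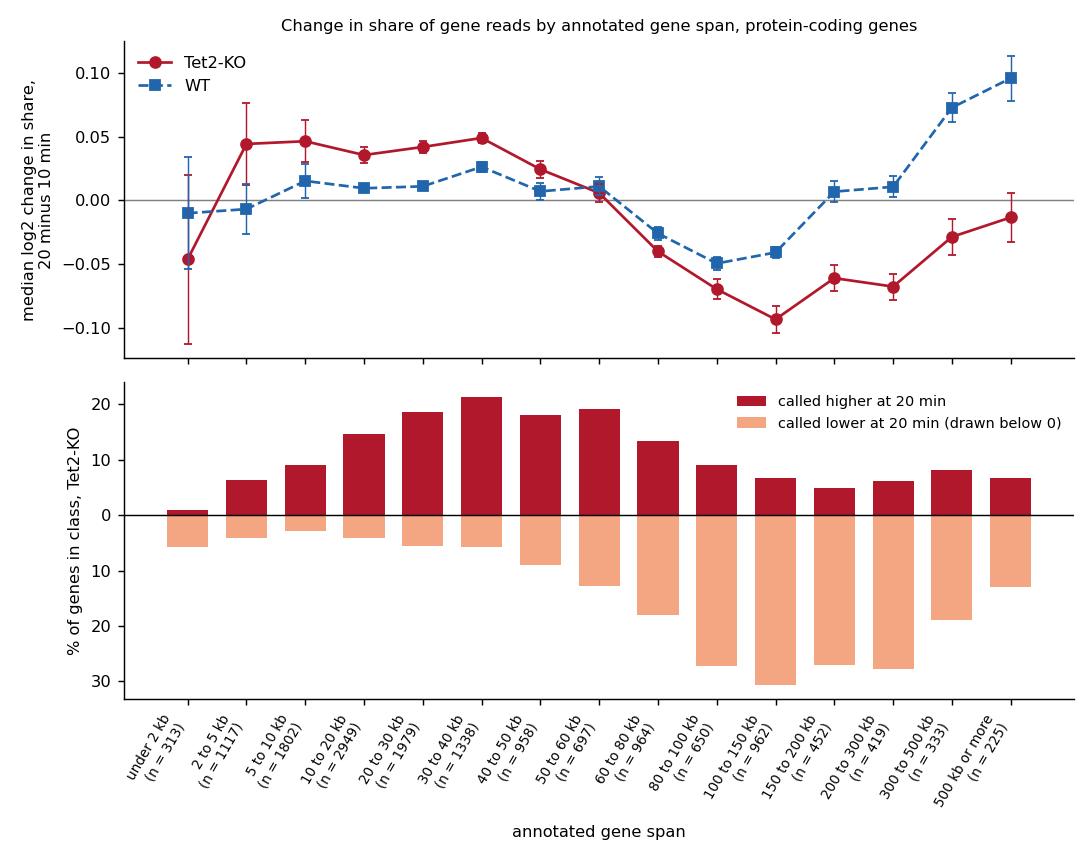
Top, median log2 change in share (20 minus 10 min) of protein-coding genes in 15 classes of annotated span, for *Tet2*-KO (red circles) and WT (blue squares), with bars of the pooled SD of the libraries' own class medians (n = 3 per group). Bottom, the percentage of genes of each class called higher (dark) and lower (light, drawn below 0) in *Tet2*-KO. Called genes were mostly higher from 2 to 60 kb and mostly lower from 60 kb upwards, and the class of 100 to 150 kb held 30.7% called lower.

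The span pattern was seen in each library. The class median of every library was taken after centring each gene on its mean over the 6 libraries. For genes of 100 to 150 kb it was 0.06, 0.04 and 0.04 at 10 min and -0.04, -0.05 and -0.04 at 20 min, with a pooled SD of 0.0106. For genes of 30 to 40 kb it was -0.02, -0.04 and -0.03 at 10 min and 0.03, 0.03 and 0.03 at 20 min. The 10-min and 20-min libraries were apart in all 12 classes from 5 to 500 kb, and overlapped in the classes under 2 kb, of 2 to 5 kb and of 500 kb or more.

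Level and base composition were looked at beside span. With a mean of at least 8 CPM the medians were 0.08 at 30 to 40 kb (30.8% higher and 6.64% lower of 919) and -0.09 at 100 to 150 kb (8.51% higher and 40.4% lower of 705). In each quintile of genes by GC content of the transcript, genes of 80 to 300 kb had a median below 0, from -0.13 to -0.04. By level, genes of 80 to 300 kb were below 0 in every quintile, but genes of 10 to 40 kb were above 0 only in the upper 3 quintiles. In the lowest 2 quintiles their medians were -0.13 and -0.10. The finer classes and these splits were added after the first medians by span had been seen.

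Single long genes went either way. Of 558 genes of at least 300 kb, 42 were higher (7.53%) and 92 lower (16.5%). *Foxp1*, a forkhead factor of 597 kb, had 75.9, 71.7 and 67.1 CPM at 10 min and 53.3, 51.1 and 54.0 CPM at 20 min (log2 change -0.44, adjusted p = 4.93e-08), and *Adam12*, a metalloprotease gene of 349 kb, fell by 0.61. *Hs3st4*, a heparan sulfate sulfotransferase gene of 416 kb, rose from 17.4, 14.9 and 14 CPM to 22.1, 20.1 and 20.4 CPM (0.43, adjusted p = 5.18e-04). *Zfp385b* rose by 0.43, a call that was lost without replicate 1 of 10 min (0.33, adjusted p = 0.0845).

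The number of exons went with smaller differences. Medians were 0.04 for 299 genes with 1 exon, 0.00 for 2 to 3 exons, 0.01 for 4 to 9, 0.01 for 10 to 19 and -0.02 for 20 or more exons. The libraries' own medians overlapped between the times for 1 exon and for 2 to 3 exons, and over the alternatives these medians ran from -0.01 to 0.09 and from -0.01 to 0.02, so no order is read from them. For the other 3 classes the libraries were apart. Genes with more exons are longer, with a median span of 77942 bases at 20 or more exons. Within 10 to 40 kb the median went from -0.01 at 2 to 3 exons (n = 435) to 0.06 at 20 or more exons (n = 551), where 25% were higher and 6.17% lower. The median level of these 2 classes was 3.53 and 22.3 CPM, so exon number was not separated from level. Within 80 to 300 kb it was -0.01 at 2 to 3 exons (n = 45), -0.10 at 10 to 19 (n = 950) and -0.07 at 20 or more (n = 959). By the share of the span that is intron, the median was 0.07 in the quintile of genes with the least intron (at most 63.3% of the span), then 0.05, 0.02 and -0.04, and -0.06 in the quintile with the most (at least 93.3%). The median span rose from 6073.5 bases in the first quintile to 126184 in the last, so intron share was not separated from span.

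Among genes whose mRNAs are known to be short-lived, nearly all that changed gained share. A list of immediate early, feedback and cell-fate regulators held 53 tested members, of which 15 were higher (28.3%) and 2 lower (3.77%), with a median log2 change in share of 0.15. DESeq2 called 10 higher and 2 lower. Among the 30 with at least 8 CPM, 12 were higher and 2 lower, beside 19.9% and 15.5% of all genes at that level. *Socs3*, a feedback inhibitor of LIF and STAT3 signalling, had 10.2, 10.4 and 7.55 CPM at 10 min and 11.7, 17.0 and 14.6 CPM at 20 min (0.62, adjusted p = 8.13e-04). *Plk2* rose by 0.62, *Gadd45b*, a stress-response gene, by 0.57, *Btg2*, an antiproliferative gene, by 0.42, *Cdkn1a* and *Mdm2*, both p53 targets, by 0.30 and 0.20, and *Mcl1*, an anti-apoptotic gene, by 0.21. *Spry4* is also on this list. The 2 called lower were *Atf3*, a stress-induced transcription factor (-0.52, adjusted p = 0.00944), and *Bcl6*, a transcriptional repressor (-0.27, adjusted p = 0.0167). Both calls depended on single libraries: *Atf3* was not called without replicate 1 or 3 of 10 min or replicate 2 of 20 min (adjusted p = 0.0531 to 0.0661), nor *Bcl6* without replicate 1 or 2 of 20 min (-0.20 and -0.24).

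The short-lived genes are also short, with a median span of 5.16 kb. In WT, 15 of the 53 were higher and 5 lower, with a median of 0.14. Genes with the AU-rich nonamer TTATTTATT, a known decay element, in an annotated 3′ end made up 8.07% of 14960 genes. Their median was 0.10 against 0.03 without it under 10 kb (149 and 3005 genes), 0.08 against 0.04 from 10 to 40 kb (450 and 5748 genes), and -0.09 against -0.08 from 80 to 300 kb. Members of the lists named beyond the 2 highest and 2 lowest of at least 8 CPM were chosen after their values were seen.

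Genes of long-lived housekeeping mRNAs moved in both directions. Of 34 tested genes of glycolysis, translation and the cytoskeleton, 10 were higher (29.4%) and 5 lower (14.7%), with a median of 0.05. Of the 32 with at least 8 CPM, 10 were higher and 5 lower, beside 19.9% and 15.5% of all genes at that level. The percentage lower is thus near the background. *Eef2*, translation elongation factor 2, rose from 164, 158 and 168 CPM to 212, 211 and 210 CPM (0.37, SE 0.0278, adjusted p = 7.68e-12), and *Tpt1* from 169, 182 and 205 CPM to 207, 249 and 228 CPM (0.30). *Tubb5* and *Actb*, of the cytoskeleton, both rose by 0.24, and *Hsp90ab1*, a chaperone gene, by 0.16. *Naca* and *Npm1* fell by 0.20 and 0.22. *Ppia*, cyclophilin A, had 467, 600 and 589 CPM and then 462, 488 and 458 CPM, so the ranges overlapped. Its call (-0.23, adjusted p = 0.0269) was lost without replicate 2 or 3 of 10 min or replicate 1 or 3 of 20 min (adjusted p = 0.0811 to 0.197) and with DESeq2 (adjusted p = 0.148).

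**Figure D4:**
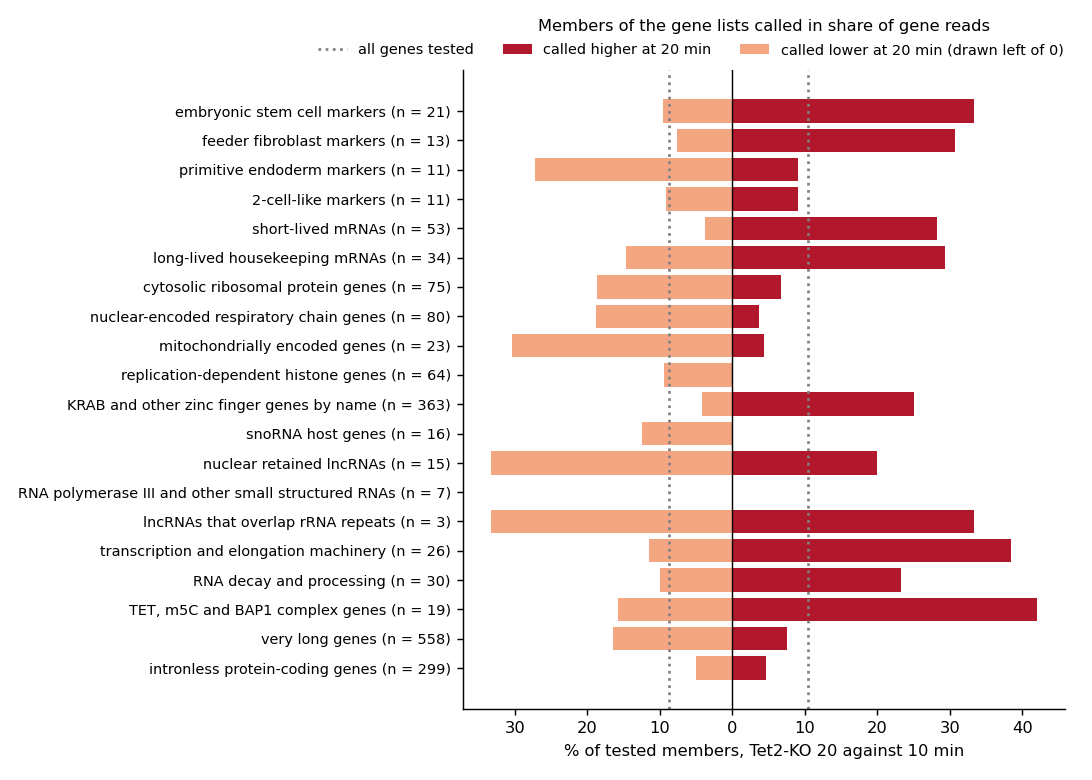
Percentage of the tested members of 20 gene lists called higher (dark, to the right) and lower (light, drawn to the left of 0) in share at 20 against 10 min in *Tet2*-KO, with the number of tested members and dotted lines at 10.4% and 8.76% for all genes tested. Short-lived mRNAs stood at 28.3% higher and 3.77% lower, and zinc finger genes at 25.1% and 4.13%.

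Of the genes for ribosomal and respiratory chain proteins that were called, more were lower than higher. Of 75 cytosolic ribosomal protein genes, 5 were higher (6.67%) and 14 lower (18.7%), with a median of -0.05. All 75 had at least 8 CPM, where 19.9% of all genes were higher and 15.5% lower, so the percentage lower is near the background. The 14 became 9 without replicate 3 of 20 min. *Rpl37* fell from 464, 472 and 454 CPM to 347, 311 and 337 CPM (-0.48, adjusted p = 2.91e-11). *Rpl7a* went against this, from 87.8, 89.6 and 94.1 CPM to 101, 112 and 107 CPM (0.24). Of 80 nuclear genes of the respiratory chain, 3 were higher and 15 lower, and of the 71 with at least 8 CPM 3 were higher and 14 lower. The 15 became 9 without replicate 2 of 10 min, 8 without replicate 1 of 20 min and 9 without replicate 2 of 20 min. *Ndufa11* and *Ndufa5*, of complex I, fell by 0.52 and 0.48. Both lists have a median span under 10 kb.

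Genes of the mitochondrial genome, which are transcribed by a separate polymerase, lost share as well. Of 23 tested, 7 were lower (30.4%) and 1 higher, with a median of -0.18, and the 7 became 4 without replicate 2 of 10 min and the 1 became 2 without replicate 1 of 10 min. Of the 14 with at least 8 CPM, 7 were lower and 1 higher, beside 15.5% and 19.9% of all genes at that level. All mitochondrial genes together took 1.88 to 1.91% of gene reads at 10 min and 1.78 to 1.81% at 20 min. *mt-Nd6*, the one protein-coding gene on the other strand of the mitochondrial genome from the rest, fell by 0.48 and *mt-Nd4l* by 0.64. *mt-Rnr1*, the small mitochondrial rRNA, rose from 1788, 1692 and 1667 CPM to 2054, 1894 and 2012 CPM (0.21, adjusted p = 3.74e-07). *mt-Rnr2*, the large one, had 3714, 3058 and 3074 CPM and then 3616, 3232 and 3527 CPM, and was called only without replicate 1 of 10 min (0.17, adjusted p = 0.0205).

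Many zinc finger genes gained share. Of 363 tested genes, KRAB and others by name, 91 were higher (25.1%) and 15 lower (4.13%), with a median of 0.14, and these proteins include the repressors of transposable elements that mES cells rely on. Of the 255 with at least 8 CPM, 84 were higher and 14 lower, beside 19.9% and 15.5% of all genes at that level. *Zfp12* rose from 10.3, 8.52 and 9.61 CPM to 14.9, 14.1 and 13.4 CPM (0.57), and *Zfp870* by 0.46. *Zfp710*, which spans 69.4 kb, fell from 268, 271 and 261 CPM to 202, 196 and 202 CPM (-0.42, adjusted p = 4.94e-13). The summed share of the list was 17464 to 17483 CPM at 10 min and 18267 to 18397 CPM at 20 min. Members of multigene families share sequence, and reads on their common parts may be left out or misplaced.

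Genes of the transcription machinery and of RNA turnover changed in both directions. Of 26 transcription and elongation genes, 10 were higher and 3 lower (38.5% and 11.5%). *Ccnt1*, the cyclin of P-TEFb, rose from 132, 124 and 129 CPM to 153, 151 and 149 CPM (0.24, adjusted p = 2.52e-06). *Hexim1*, which inhibits P-TEFb, rose by 0.29, a call lost without replicate 2 of 20 min (0.21, adjusted p = 0.0613). *Cdc73*, of the PAF1 complex and 104 kb long, fell by 0.17 and *Ell2*, of the super elongation complex, by 0.18. Of 30 genes of RNA decay and processing, 7 were higher and 3 lower. The 3 became 0 without replicate 2 of 10 min, 1 without replicate 2 or 3 of 20 min and 5 with DESeq2's size factors or test. Of those higher, *Exosc10*, a nuclear exosome nuclease, rose by 0.24. All 26 of the former and 29 of the latter had at least 8 CPM, so that the fitting comparison is with 19.9% and 15.5%.

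Genes of the pathway that the study concerns, the TET enzymes, the m5C writers and readers and the BAP1 complex, were 8 higher and 3 lower of 19 (42.1% and 15.8%), with a median of 0.12. Of these, 18 had at least 8 CPM, where 19.9% of all genes were higher and 15.5% lower. The 8 became 5 without replicate 1 of 10 min or replicate 2 of 20 min, and the 3 became 1 without replicate 2 of 10 min or replicate 3 of 20 min. *Asxl1*, a subunit of the BAP1 deubiquitinase, rose from 425, 416 and 417 CPM to 491, 507 and 481 CPM (0.23, adjusted p = 5.14e-08). *Pspc1*, a paraspeckle protein, rose by 0.22, *Bap1* by 0.20 and *Nsun2*, an RNA m5C methyltransferase, by 0.18. *Tet1* fell by 0.11 and *Tet3* by 0.35. The *Tet3* call (adjusted p = 0.00549) was lost without replicate 2 of 10 min (-0.27, adjusted p = 0.0542) and without replicate 3 of 20 min (-0.28, adjusted p = 0.0562).

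Most of the pluripotency genes tested had at least 8 CPM, and those that were called mostly rose. *Sox2*, which is on the list, had no read in the *Tet2*-KO libraries and was not tested. *Dppa3* and *Utf1* were low, with means of 1.70 and 5.19 CPM. Of 21 embryonic stem cell markers 7 were higher (33.3%) and 2 lower, although the median was -0.02. Of the 19 with at least 8 CPM, 7 were higher and 2 lower, beside 19.9% and 15.5% of all genes at that level. In WT, 7 of the 21 were higher and 3 lower. *Lin28a*, which blocks let-7 maturation, went from 16.5, 17.1 and 15.1 CPM to 25.5, 23.0 and 24.3 CPM (0.58, adjusted p = 2.98e-07). *Fgf4* went from 85.7, 85.2 and 88.1 CPM to 116, 121 and 128 CPM (0.49, adjusted p = 7.21e-11). *Sall4* rose by 0.42, *Pou5f1*, which encodes OCT4, by 0.38, *Nanog* by 0.15 and *Esrrb* by 0.13. *Prdm14* fell from 34.1, 34.1 and 32.5 CPM to 26.4, 25.5 and 25.1 CPM (-0.39), and *Tfcp2l1* by 0.17.

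Markers of other cell states are given beside these. Of 11 primitive endoderm markers, 3 were lower and 1 higher, beside 8.76% and 10.4% of all genes tested. *Lama1*, a laminin chain of 125 kb, fell from 249, 242 and 246 CPM to 191, 202 and 197 CPM (-0.32, adjusted p = 1.90e-10). *Lamb1* fell by 0.42. The summed share of the 13 listed markers was 400 to 421 CPM at 10 min and 358 to 368 CPM at 20 min. Most of it is from *Lama1* (a mean of 221 CPM), whose fall is about as large as that of the sum. Of 11 markers of the 2-cell-like state, 1 was higher (*Tdpoz1*, 0.55) and 1 lower (*Zscan4c*, -0.66), and the first call was lost without any 1 of the libraries but replicate 3 of 20 min, the second without replicate 1 or 2 of either time. Their sum, 215 to 223 CPM and 227 to 231 CPM, is nearly all from *Eif1a* (a mean of 211 CPM), whose log2 change was 0.05 (adjusted p = 0.210). The median log2 change of the list was -0.03. Its other members that were not called went in both directions, from *Zscan4f* (-1.05) and *Zscan4b* (-0.90) to *Usp17lb* (1.44). Most of these were below 1 CPM. *Gata4*, *Zscan4c* and *Tdpoz1*, the other called markers of these lists, were all below 8 CPM, apart from *Sparc* (0.19), whose call was lost without replicate 2 of 10 min (0.14, adjusted p = 0.0764).

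Nuclear lncRNAs were divided. Of 15, 5 were lower and 3 higher. Among the 12 with at least 8 CPM, 5 were lower and 3 higher, beside 15.5% and 19.9% of all genes at that level. *Meg3*, the maternally expressed lncRNA of an imprinted cluster, fell from 257, 271 and 257 CPM to 209, 206 and 212 CPM (-0.33, adjusted p = 1.99e-10), and *Rian* of the same cluster by 0.17. *Firre* fell by 0.19, *Neat1* by 0.13 and *Malat1* by 0.08. *Kcnq1ot1*, a long antisense transcript that silences its imprinted domain, rose from 398, 405 and 394 CPM to 463, 483 and 460 CPM (0.23), and *Tug1* by 0.50. Of 16 snoRNA host genes, 2 were lower and 0 higher by edgeR and by DESeq2 (4 and 0 at an unadjusted p under 0.05), and *Zfas1* fell by 0.28. At least 8 CPM was reached by 14 of the 16. Of 64 replication-dependent histone genes, 6 were lower (9.38%) and 0 higher by edgeR and by DESeq2 (11 and 1 at an unadjusted p under 0.05), beside 8.76% lower over all genes tested, with a median of -0.05 and a summed share that overlapped between the times (938 to 1135 CPM and 920 to 1153 CPM). The 6 became 2 without replicate 1 of 20 min, and 1 was called higher without that library or replicate 3 of 10 min. *Hist1h4f* (-0.41, adjusted p = 0.0324) was not called without replicate 2 or 3 of 10 min or replicate 1 or 2 of 20 min. Of 299 protein-coding genes with 1 exon, 14 were higher (4.68%) and 15 lower (5.02%, 9 genes without replicate 1 of 20 min), and 57 of them are histone genes. *Gm42418* and *Gm26917*, lncRNAs that overlap rRNA repeats, went from 749, 559 and 685 CPM to 931, 945 and 970 CPM and from 15872, 20733 and 19366 CPM to 15332, 16802 and 15530 CPM. The call of *Gm26917* (-0.23) was lost with DESeq2 (adjusted p = 0.165) and without replicate 2 or 3 of 10 min or replicate 1 or 3 of 20 min (-0.22 to -0.14).

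Changes from 10 to 20 min were compared with those in WT, which share no library with them. In WT, 2207 genes were higher (11.1%) and 1840 lower (9.24%). Of the *Tet2*-KO genes called higher, 52.8% were also called higher in WT (49.7% of the WT list), and of those called lower, 46.8% were also lower in WT (44.3% of the WT list), while 121 genes were called in opposite directions. Across 9249 protein-coding genes with at least 8 CPM the Pearson correlation of the 2 log2 changes was 0.57. It is a description across genes, which are not independent, and was 0.16 over all genes tested.

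The difference between the genotypes was tested by the interaction, the log2 change in *Tet2*-KO minus that in WT. It was called above 0 for 327 genes (1.64%) and below 0 for 570 (2.86%). Genes of 80 to 300 kb made up 269 of the 528 protein-coding genes with an interaction below 0 and 27 of the 301 above 0, and 558 genes of at least 300 kb gave 101 below and 8 above. The medians of genes of at least 300 kb were -0.03 in *Tet2*-KO and 0.08 in WT. The former was -0.01 without replicate 2 of 10 min and -0.01 without replicate 2 of 20 min, and the *Tet2*-KO libraries' own medians overlapped between the times. At 80 to 100 kb they were closer, at -0.07 and -0.05. At these times the total per ERCC read had risen 2.16-fold in *Tet2*-KO and 3.16-fold in WT.

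**Figure D5:**
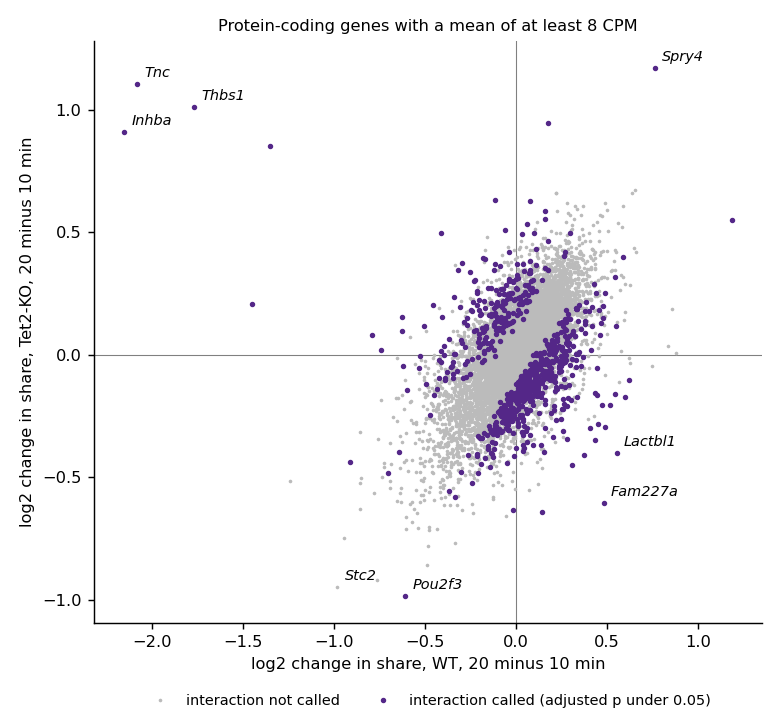
Log2 change in share from 10 to 20 min in *Tet2*-KO (vertical) against WT (horizontal) for 9249 protein-coding genes with a mean of at least 8 CPM, with genes called in the interaction in purple. *Tnc*, *Thbs1* and *Inhba* lie at the upper left, at 0.91 to 1.10 in *Tet2*-KO and -2.15 to -1.77 in WT.

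Among genes with a mean of at least 8 CPM in the *Tet2*-KO libraries of 10 and 20 min, the highest interactions were those of *Tnc*, *Inhba* and *Thbs1*. *Tnc* had 22, 25.6 and 24.5 CPM at 10 min and 5.76, 5.45 and 5.76 CPM at 20 min in WT, the reverse of its course in *Tet2*-KO, and its interaction was 3.19 (adjusted p = 5.99e-13, edgeR). *Inhba* had 12.6, 10.4 and 11.0 CPM in WT and then 2.58, 2.23 and 2.79 CPM, with an interaction of 3.06, and *Thbs1* 21.8, 24.4 and 15.8 CPM and then 6.21, 6.39 and 5.62 CPM, with 2.78. At lower levels, the fibroblast markers *Postn*, *Acta2*, *Col1a2* and *Col1a1* had interactions of 5.20, 3.94, 3.86 and 3.21. Of the 13 tested feeder fibroblast markers 8 had an interaction called above 0 and 1 (*Fn1*) below, beside 1.64% and 2.86% of all genes tested. From 20 to 40 min in *Tet2*-KO, a contrast that shares the 20-min libraries, the log2 changes were -1.20 for *Tnc*, -0.52 for *Thbs1*, -0.77 for *Inhba*, -1.31 for *Acta2* and -1.13 for *Col1a1*. So these genes were highest at 20 min in *Tet2*-KO and fell in WT from 10 to 20 min. The sum of the markers without *Fn1* rose and fell likewise between 10 and 20 min, while the sum with *Fn1* was lower at 20 min in *Tet2*-KO.

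*Egr1*, an immediate early transcription factor, had an interaction of 2.29. It was low in *Tet2*-KO at both times, with 1.56, 2.35 and 1.48 CPM and then 2.43, 1.77 and 3.18 CPM, and its own log2 change of 0.47 did not pass the test (adjusted p = 0.129), although it did without replicate 2 of 10 min (0.70, adjusted p = 0.0350) or of 20 min (0.66, adjusted p = 0.0329). In WT it went from 61.6, 60.6 and 53.5 CPM to 15.8, 17.5 and 16.4 CPM. With the mean of at least 8 CPM taken over both genotypes at 10 and 20 min, the lowest interactions were those of *Fam227a* (-1.09), *D830036C21Rik* (-1.04) and *Lactbl1* (-0.95). *D830036C21Rik* fell by 0.60 in *Tet2*-KO, a call lost with DESeq2 (adjusted p = 0.128) and without replicate 1 of 10 min (-0.31, adjusted p = 0.275) or replicate 2 of 20 min (-0.45, adjusted p = 0.128). *Lactbl1* fell from 35.5, 33.7 and 30.3 CPM to 27.2, 22.3 and 26.0 CPM in *Tet2*-KO and rose by 0.55 in WT. *Fam227a* went from 14.7, 11.8 and 11.1 CPM to 8.23, 7.90 and 8.73 CPM in *Tet2*-KO and rose by 0.48 in WT.

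Genes of translation also differed between the genotypes. Of the 75 ribosomal protein genes, 44 were lower and 1 higher in WT, against 14 and 5 in *Tet2*-KO, and 15 had an interaction called above 0 and 0 below by edgeR (13 and 0 by DESeq2, 35 and 1 at an unadjusted p under 0.05). Of all genes with at least 8 CPM, 14.1% were lower and 19.5% higher in WT. At that level 2.54% had an interaction called above 0 and 5.38% below. Of the 34 long-lived housekeeping genes, 12 had an interaction above 0 and 0 below by edgeR and by DESeq2 (16 and 0 at an unadjusted p under 0.05), and *Eef1g*, *Rack1* and *Rplp0* were called higher in *Tet2*-KO and lower in WT. For *Eef2* the log2 change was 0.37 in *Tet2*-KO and 0.04 in WT, with an interaction of 0.33 (adjusted p = 3.53e-07). *Fgf4* rose by 0.49 in *Tet2*-KO and by 0.03 in WT, where the change did not pass the test, and its interaction was 0.46 (adjusted p = 1.70e-06). The interactions called in histone genes went the other way, with 4 of 64 below 0 (6 by DESeq2) and 0 above. In WT 11 of the 64 were higher and 0 lower. Over all genes tested 2.86% had an interaction below 0, and 11.1% were higher in WT.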

How the data were processed

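RNA was labelled with EU, depleted of rRNA, captured, and made into libraries with a stranded total RNA kit (SMARTer Pico v2). Per the labels, the authors trimmed reads with Trimmomatic 0.39, aligned them to mm10 with HISAT2 2.2.1 and counted them with HTSeq 0.12.4 against GENCODE M19. The authors deposited raw counts per gene without normalization, for 54446 genes and 92 ERCC transcripts. Feature type, strand setting and overlap mode are not given in the sources used here. Reads assigned to no single gene (23.2 to 24.8% of reads in the 6 libraries) stayed out of library sizes. Reads carry no molecular identifiers, so counts are not independent molecules.

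Names, spans, exons and 3′ ends came from GENCODE M21 on the same build (54409 identifiers matched). edgeR 4.0.16 (R 4.3.3, limma 3.58.1) was fitted to all 18 libraries in 6 groups after filterByExpr (minimum count 10), with TMM, gene read totals or ERCC totals as library sizes. DESeq2 1.42.0, other scalings, filters, the 6 libraries alone, the replicate number as a block and each library left out were alternatives. The SE is the absolute log2 change over the square root of F. The edgeR and DESeq2 fits were tested on simulated data.

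Genes were named by rule, all with at least 8 CPM: the 10 highest and 10 lowest called protein-coding and the 5 highest and 5 lowest other genes in share with no overlap between times, the 2 highest and 2 lowest of each list, the 3 highest and 3 lowest interactions, and *Tet2*. For interactions the mean was taken over the libraries of both genotypes at 10 and 20 min. *Egr1*, with a mean of 2.13 CPM in *Tet2*-KO, reached 8 CPM only through WT. Other genes were named after their values were seen. Some genes that the rule names are not reported here. The comparison, the 20 lists and the tests were chosen with earlier results of these data known. Per-library class medians used log2 of CPM plus 0.1.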

Additional observations from a re-analysis of the deposited data

Results flagged for a closer look

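Named genes are listed here whose change in share from 10 to 20 min differed between *Tet2*-KO and WT by the interaction test (edgeR, adjusted p under 0.05). Values are log2 changes in *Tet2*-KO minus those in WT. The genes of matrix and TGF-beta signalling were *Tnc* (3.19), *Inhba* (3.06) and *Thbs1* (2.78), followed by *Egr1* (2.29), whose change in *Tet2*-KO itself was not called. Of the fibroblast markers with at least 8 CPM, *Fbn1* (0.66) and *Col5a1* (0.56) were above 0 and *Fn1* (-0.12) below, and of those at lower levels *Postn* (5.20), *Acta2* (3.94), *Col1a2* (3.86), *Col1a1* (3.21), *Col3a1* (3.14) and *Tagln* (1.33) were above 0. Of the genes named after their values were seen, *Rack1* (0.30), *Rplp0* (0.28), *Eef1g* (0.21) and *Tubb5* (0.17) were above 0, and *Kbtbd11* (-3.99), *Rian* (-0.17), *Tet1* (-0.16) and *Tfcp2l1* (-0.12) below. Other values above 0 were those of *Soga3* (0.77), *Fgf4* (0.46), *Spry4* (0.41), *Purb* (0.39), *Gm42418* (0.35), *Eef2* (0.33), *Rpl37* (0.22), *mt-Rnr1* (0.21) and *Eif1a* (0.14). *Rpl37* fell in both genotypes, and more in WT. Values below 0 were those of *Fam227a* (-1.09), *D830036C21Rik* (-1.04), *Lactbl1* (-0.95), *Hist1h4f* (-0.79), *Exosc3* (-0.59), *Pou2f3* (-0.38), *Meg3* (-0.38), *Zfp710* (-0.29), *Lama1* (-0.20), *Cdc73* (-0.17) and *Tet2* (-0.11). *Pou2f3*, *Lama1* and *Zfp710* fell in both genotypes, and *Spry4* and *Tet2* rose in both.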

How the results depend on the processing

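The counts of genes called in share stayed at 1695 to 2064 higher and 1696 to 1957 lower under the alternatives, and at 1617 to 1877 and 1380 to 1554 without 1 library. The split between higher and lower moved most with upper-quartile factors (1741 higher and 1957 lower). Interaction counts stayed at 237 to 349 above 0 and 465 to 636 below 0 without 1 library. The count of genes lower per ERCC read was 1 with DESeq2, 1 with at least 10 reads in every library, and 2 to 7 without 1 library, the 7 without replicate 2 of 20 min, because the genes have few reads. The total ratio was 2.09 to 2.24 without 1 library. Same-numbered libraries of 10 and 20 min correlated at 0.19, 0.11 and -0.02 in their deviations from the group means. The own number gave the highest correlation for replicates 1 and 2 but not for replicate 3. In WT it did so for each replicate, at 0.02, 0.07 and 0.12. The correlations are low, and whether the numbers pair the dishes was not settled. With a replicate block 2064 genes were higher and 1729 lower in share, 2202 and 1631 relative to the total, 17032 and 3 per ERCC read, and 324 and 578 in the interaction. Of 105 named genes, 26 crossed the threshold under at least 1 of 10 alternatives, and none changed direction while called. Over the alternatives, 34 of the medians by span or exon number moved by more than the spread between replicates and 56 did not. The median stayed between -0.09 and -0.07 at 80 to 300 kb, between 0.03 and 0.05 at 10 to 40 kb and between -0.04 and -0.01 at 300 kb or more, while those at 40 to 80 kb and of 1, 2 to 3 and 10 to 19 exons changed sign. Of the counts of list members called, 38 moved by over 1.5 times and 282 did not.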
